A study of Mus musculus with 12 samples.

Results

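The genes described here encode the scaffold of the cardiac sarcomere, the contractile unit of the heart muscle cell. They were chosen by name as Actn2, Ldb3, Csrp3, Tcap, Des, Ttn, Mybpc3, Myom1, Ankrd1 and Smpx, 10 genes in all. Probes for 9 of these 10 genes were found among the 19057 genes measured, and Smpx matched no probe of the annotation used and is not analysed here. Each gene was read from the brightest of its probes, out of 32 probes for the 9 genes.

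In a sarcomere, actin filaments are anchored end to end at the Z-disc, where alpha-actinin crosslinks them. Titin, the largest protein of the muscle cell, runs from the Z-disc to the M-band in the middle of the sarcomere and holds the myosin filament in place. Smaller proteins cap titin, bind alpha-actinin, bridge myosin filaments or link neighbouring myofibrils, and many of them are mutated in inherited cardiomyopathy. In the mouse embryo the heart already beats at the stages studied, while its myofibrils are still being assembled.

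Total RNA was taken from dissected mouse embryonic hearts at embryonic day 10 (E10) and at embryonic day 9 (E9) and hybridised to bead arrays. The atrioventricular canal (AVC), in which the valve cushions form, was compared with the ventricle, labelled LV in the samples and described as the primary ventricle. The 4 groups, AVC E10, LV E10, AVC E9 and LV E9, had 3 arrays each, and no genotype, strain or treatment is named in the sources used here for any of them. The sources do not say how many embryos went into an array or whether replicates came from separate litters, so the tests are set against variation among arrays that could be technical. Both tissues hold muscle together with endocardium, and in bulk tissue fewer muscle cells and less RNA per muscle cell cannot be told apart.

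Intensities were background subtracted and had a mean of 386 on each array. An intensity was called above background when it exceeded the size of the most negative value of its array, 22.4 to 29.6. The 11 cardiomyocyte markers were above background on 11 or 12 arrays each, and their summed intensity was 18120 to 26532 in AVC E10, 17357 to 18438 in LV E10, 25440 to 29856 in AVC E9 and 22520 to 27831 in LV E9. The 12 cushion mesenchyme markers summed to 8178 to 10303 in AVC E10 against 1983 to 3349 in LV E10, and to 5494 to 7129 in AVC E9 against 1971 to 2659 in LV E9, without overlap between tissues. Epicardial markers summed to 3078 to 6940 at E10, against 553 to 1207 at E9. Of 7 neural markers, 0 were above background on all 3 arrays of any group, and of the skeletal muscle regulators Myod1, Myf5, Myf6 and Pax7 none was above background on any array, whereas the skeletal muscle markers Tnnt3 and Myh8 were on 12 arrays and Myog on 7. Replicate 1 of LV E10 stood apart from its group, with a mean correlation of 0.933 to the other LV E10 arrays, while replicate 2 of AVC E9 correlated best with replicate 1 of AVC E10 (0.979) rather than with its own group.

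All 9 genes were above background on all 12 arrays, and none passed the test for AVC against LV at either age, with log2 differences of -0.64 to 0.59 at E10 and -0.39 to 0.52 at E9. Between ages the differences of the genes other than Ttn lay between -0.42 and 0.45. The log2 difference of Ttn between E10 and E9 was -1.65 in each tissue, and with all 12 arrays weighted equally it passed the test only as an average over both tissues. With limma across all genes, 0 of the 9 genes passed an adjusted p of 0.05 between AVC and LV at E10, against 2.3% of all genes, and 0 of 9 between AVC and LV at E9, against 1.02% of all genes. Between E10 and E9, 0 of 9 passed in the AVC, against 0.551% of all genes, and 0 of 9 in the LV, against 2.37%. The difference between the tissue effects at the 2 ages passed for 0 of 9, against 0.0315% of all genes. At an unadjusted p under 0.05 there were 2 of 9 for AVC against LV at E10, beside 13.9% of all genes, and 0 at E9, beside 11.5%. For age there was 1 in the AVC, beside 12.5% of all genes, and 1 in the LV, beside 19.6%, and for the interaction 0, beside 4.71%. The test named in the study's methods, after Benjamini-Hochberg adjustment, also called 0 of 9 in each of the 4 comparisons of pairs of groups.

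**Figure D1:**
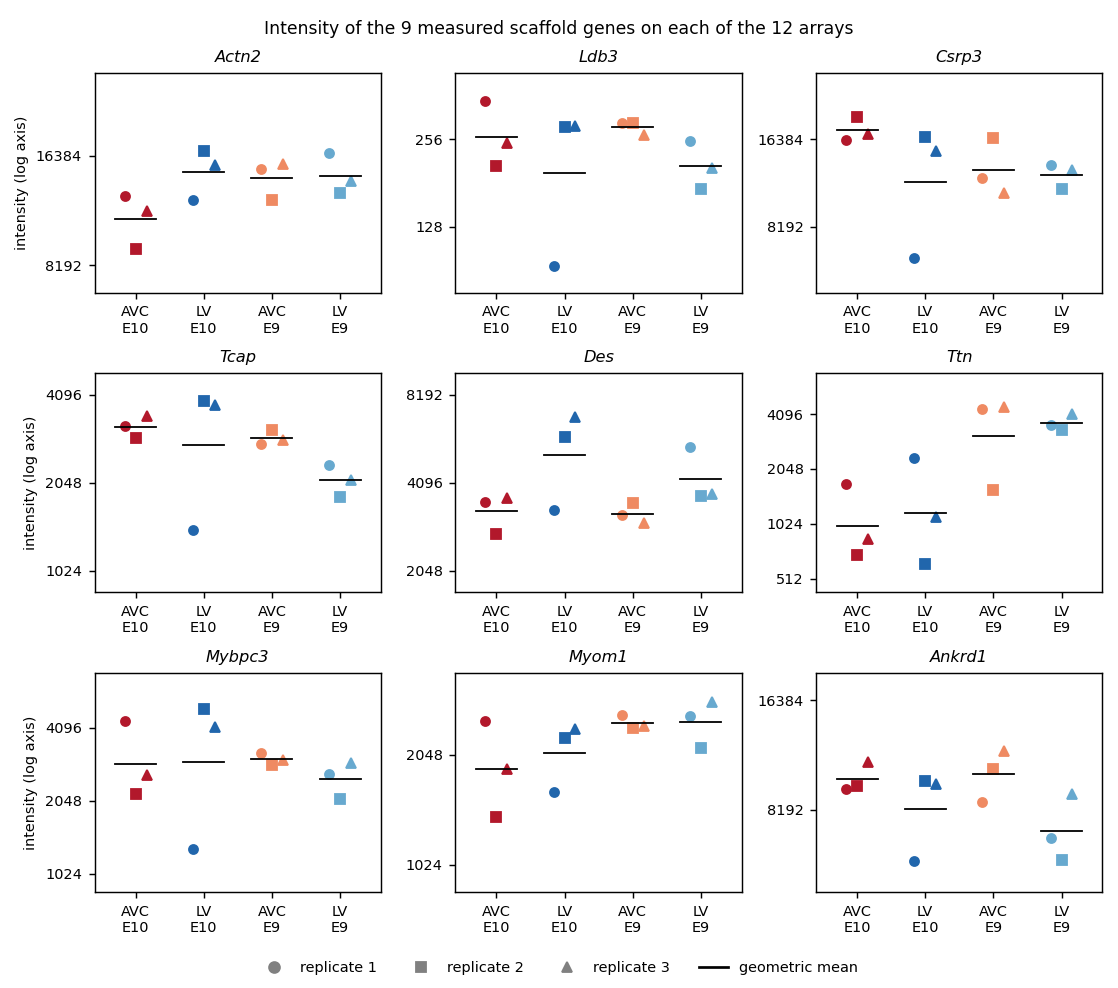
Intensity of the 9 measured genes on a log axis, with 1 point per array, 1 panel per gene and black bars for the geometric mean of 3 arrays. Ttn is low at E10 in both tissues, and replicate 1 of LV E10 is the lowest of the 12 arrays for Ldb3, Csrp3, Tcap, Mybpc3 and Ankrd1.

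Sequence before the transcription start was looked up in RefSeq (GRCm38.p6) for all 10 genes, and 9 of them had 11 entries in the table used, with Tcap unmatched. In the 250 bases before each start, matches were sought on both strands for 5 motifs. The TATA letters, TATAAA, were sought only as written. GATA factors were represented by the letters AGATAA, the E-box by the letters CANNTG and MCAT, the site of TEAD factors, by the letters CATTCC. CArG and MEF2 were searched as letter patterns that allow alternative bases at some positions. MEF2 matched in Ttn and Mybpc3, 2 of the 9 genes, against 2.92% of 32851 promoters of the same length. CArG, the site of serum response factor, matched in Ldb3 and Myom1, against 1.47% of promoters. MCAT matched in Ankrd1, against 12.6%, and the GATA letters in Myom1, Ankrd1 and Smpx, against 9.99%. The E-box was found in 7 of the 9 genes and in 66.2% of promoters, and TATA in 0 of the 9 genes and in 7.59% of promoters. A gene was counted once if any of its entries matched, while the shares are over single promoter entries. A match describes letters in this window and does not show a site in use.

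The sequences of 4 genes are printed, chosen by the array results of these genes below. Ttn carried the age difference, Ldb3 and Mybpc3 had the most similar profiles, and Ankrd1 had the largest positive tissue difference at E9. A link between these sequences and the intensities was not tested. Each runs 5′ to 3′ on the strand of its gene and ends at the base before the start. Capitals mark MEF2 in Ttn and Mybpc3, CArG in Ldb3, and both MCAT matches and the GATA match in Ankrd1, and no match in capitals overlaps another in capitals. E-box matches are not in capitals.
Ttn (chr2:76982548-76982797, minus strand): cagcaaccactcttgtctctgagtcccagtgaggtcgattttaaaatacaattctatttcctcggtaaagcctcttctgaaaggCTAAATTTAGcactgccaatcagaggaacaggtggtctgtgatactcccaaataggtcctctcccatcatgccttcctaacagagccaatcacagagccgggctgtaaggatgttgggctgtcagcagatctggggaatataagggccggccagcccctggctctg
Mybpc3 (chr2:91117894-91118143, plus strand): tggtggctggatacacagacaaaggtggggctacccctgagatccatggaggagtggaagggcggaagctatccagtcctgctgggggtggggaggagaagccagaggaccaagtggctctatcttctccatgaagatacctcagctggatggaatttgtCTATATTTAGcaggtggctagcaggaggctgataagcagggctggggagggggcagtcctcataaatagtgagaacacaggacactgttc
Ldb3 (chr14:34588682-34588931, minus strand): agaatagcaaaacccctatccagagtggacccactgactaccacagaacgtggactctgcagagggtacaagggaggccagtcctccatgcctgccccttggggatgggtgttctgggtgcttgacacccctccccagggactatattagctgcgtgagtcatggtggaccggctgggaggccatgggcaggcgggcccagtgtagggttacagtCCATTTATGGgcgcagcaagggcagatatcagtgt
Ankrd1 (chr19:36119845-36120094, minus strand): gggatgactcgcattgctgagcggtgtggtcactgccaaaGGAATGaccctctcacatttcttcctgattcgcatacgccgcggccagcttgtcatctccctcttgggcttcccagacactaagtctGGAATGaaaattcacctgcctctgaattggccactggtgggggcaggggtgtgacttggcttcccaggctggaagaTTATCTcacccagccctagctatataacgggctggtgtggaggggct

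Ttn encodes titin. On its brightest probe, Ttn had intensities of 1694, 688 and 851 in AVC E10, against 4353, 1564 and 4457 in AVC E9. The E10 arrays were lower except that replicate 1 of AVC E10 lay above replicate 2 of AVC E9, so the groups overlapped. In the LV the intensities were 2349, 613 and 1113 at E10, against 3584, 3357 and 4093 at E9. Each LV E10 array was below each LV E9 array, a separation that 20.4% of all genes showed in this comparison. The log2 difference for E10 against E9 was -1.65 ± 0.59 (SE) in the AVC (adjusted p = 0.276) and -1.65 ± 0.59 in the LV (adjusted p = 0.166), so that the fitted E10 intensity was 0.32 of that at E9 in the AVC and 0.319 in the LV. The interaction was 0.00 with a 95% interval of -1.89 to 1.89. Between tissues no Ttn difference was detectable, with log2 values of -0.23 for AVC against LV at E10 (interval -1.57 to 1.11) and -0.23 at E9 (interval -1.57 to 1.10), and its sign turned when replicate 1 of LV E10 (0.27 at E10) or replicate 2 of AVC E9 (0.26 at E9) was left out, and on the mean of its detected probes (0.23 at E10 and 0.29 at E9).

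Averaged over the AVC and the LV, a comparison added after the values were seen, Ttn fell by 1.65 ± 0.41 on the log2 scale at E10 (adjusted p = 0.0472), 1 of the 9 genes, against 8.1% of all genes called in this comparison. None of the 9 genes separated all 6 E10 arrays from all 6 E9 arrays, which 2.89% of all genes did. The call was close to its threshold and was lost when any of 9 of the 12 arrays was left out, with adjusted p of 0.0892 to 0.115 and log2 differences of -1.41 to -1.68. Without replicate 1 of LV E10 the averaged difference was -1.90 (adjusted p = 0.0149), and in the LV alone it was -2.15 (adjusted p = 0.0451). LV E10 then had 2 arrays, and 3434 and 2630 of all genes were called, against 1544 and 452 with all arrays. Without replicate 1 of LV E10 and replicate 2 of AVC E9 the difference was -2.14 in the AVC (adjusted p = 0.0362) and -2.15 in the LV (adjusted p = 0.0152). Both groups then had 2 arrays, and 1240 and 3652 of all genes were called, against 105 and 452. With all 12 arrays and a weight estimated for each, the difference was -2.25 in the AVC (adjusted p = 0.00232) and -2.46 in the LV (adjusted p = 0.000733), in a fit of weights that did not reach its tolerance. The weighted fit called 4452 and 6469 of all genes in these comparisons.

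Titin has many splice forms, and 12 probes were annotated to Ttn. Of these, 6 were above background on at least 9 arrays and the other 6 on none. On the log2 scale all 6 detected probes were lower at E10 than at E9 in both tissues. The differences lay between -1.10 and -2.60 in the AVC and between -0.19 and -2.99 in the LV. The brightest probe and ILMN_1223811 were above background on all 12 arrays. The other detected probes were above it on 9 to 11 arrays, and their readings below background were all on E10 arrays. Probes could thus count as detected through E9, so their shared direction is partly set by that rule. ILMN_2443220 read 4.43 on replicate 2 of AVC E10, and 2.32 and 4.28 on replicates 2 and 3 of LV E10. The second brightest probe, ILMN_1223811, averaged 158 ± 84.7 in AVC E10 against 1185 ± 817 in AVC E9 (SD, n = 3), and 156 ± 224 in LV E10 against 530 ± 89.4 in LV E9. Its replicate 1 of LV E10 was at 414, while the other LV E10 arrays were at 28.7 and 24.4. The probe with the smallest change in the LV, ILMN_1228221, averaged 112 ± 86.8 in LV E10 and 106 ± 24.1 in LV E9. Probes of 1 gene share the RNA of each array and are not replicates.

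**Figure D2:**
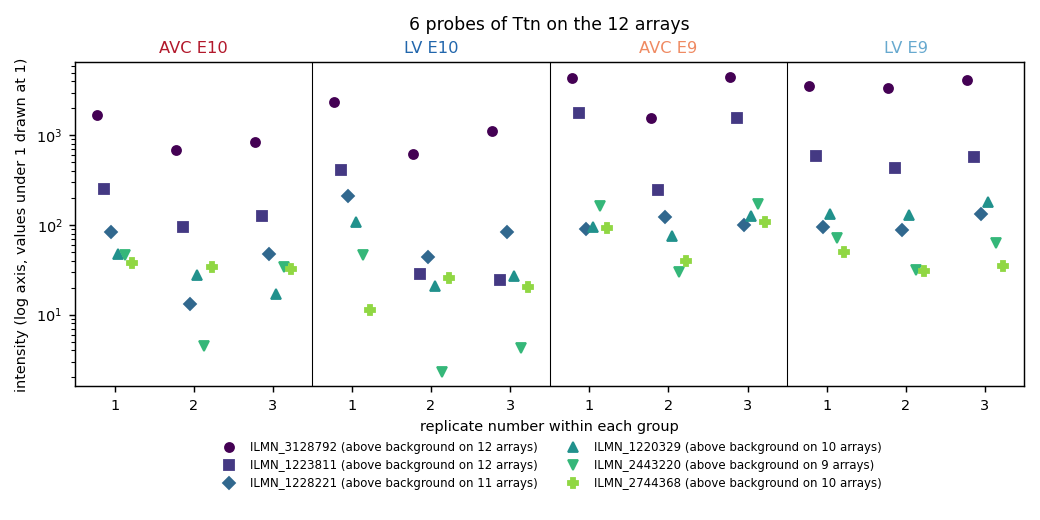
Intensity of the 6 detected Ttn probes on a log axis for each of the 12 arrays, with 1 symbol per probe. Most probes are lower on the E10 arrays, and replicate 2 of AVC E9 is low and replicate 1 of LV E10 high within its group for the brightest pair of probes, at 1564 and 2349 on the brightest.

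Other genes with very long transcripts showed some of the same array-to-array pattern as Ttn. Ryr2, the calcium release channel of the heart, had intensities of 2009, 1256 and 1411 in AVC E10 and 2020, 966 and 1212 in LV E10, against 3437, 1483 and 3471 in AVC E9 and 2893, 2322 and 3049 in LV E9. Replicate 2 of AVC E9 was the lowest E9 array for Ryr2, as for Ttn. Of 30 genes known for very long transcripts, a list chosen after the Ttn values were seen, 23 were above background on all 3 arrays of a group. Averaged over tissues, 20 of these 23 had a lower fitted level at E10, and 1 was called lower and 1 higher. Their median log2 difference was -0.54, against -0.05 for all genes above background. Ttn was not taken out of this list for these counts. On replicate 1 of LV E10 the mean log2 intensity of the 23 was 7.83, above the 7.61 to 7.7 of the LV E9 arrays. Ttn was below each LV E9 array there. The dimmest detected probe of Actb, the cytoplasmic beta-actin gene, read 0.621% to 2.34% of the brightest Actb probe in AVC E10 and 2.05% to 7.18% in LV E10, against 1.44% to 9.16% in AVC E9 and 8.31% to 10.5% in LV E9. Ryr2 is also 1 of the 11 cardiomyocyte markers. Averaged over tissues their median difference was -0.46, with 7 negative and 4 positive. Of these 11, 2 were called lower and 1 higher, beside 8.1% of all genes called. The 13 measured myosin, troponin, actin and tropomyosin genes had a median of -0.05. The part of transcript length, RNA quality or a wider change in cardiomyocyte genes in the Ttn difference was not tested.

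**Figure D3:**
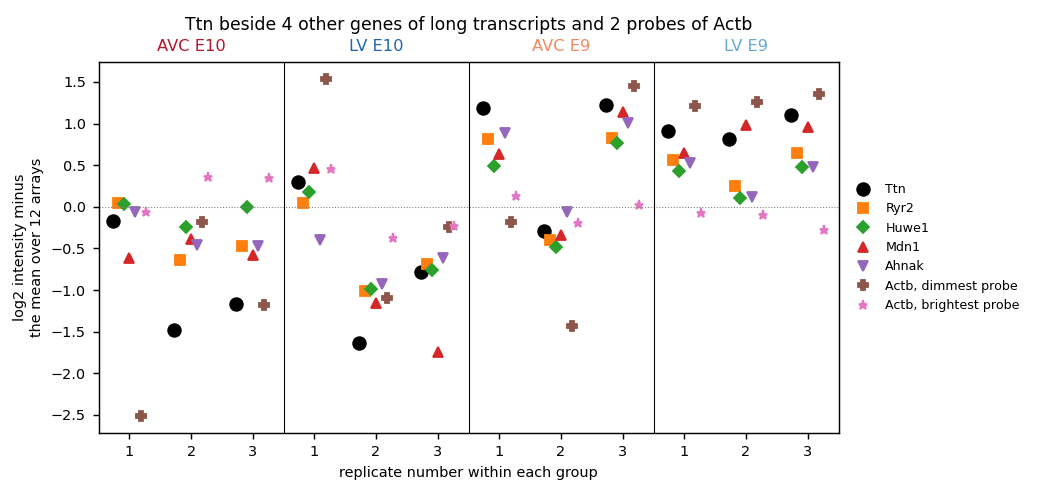
Log2 intensity of Ttn, of Ryr2, Huwe1, Mdn1 and Ahnak, and of 2 Actb probes on each array, minus the mean of each over the 12 arrays. Ttn (black circles) and the other long transcripts are high on replicates 1 and 3 of AVC E9 and on LV E9. On replicate 2 of AVC E9, where Ttn was at 1564, they are below replicates 1 and 3. Ahnak, at 1253 there, is close to its own mean.

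Des encodes desmin, the intermediate filament that links neighbouring Z-discs. Its intensities were 3531, 2734 and 3618 in AVC E10, against 3292, 5855 and 6856 in LV E10. The groups overlapped through replicate 1 of LV E10, which was below 2 of the AVC E10 arrays. At E9 they were 3179, 3485 and 2971 in the AVC, against 5422, 3686 and 3742 in the LV, with each AVC array below each LV array. Des had the most negative tissue difference of the 9 genes at both ages, -0.64 ± 0.27 (SE) at E10 (adjusted p = 0.342) and -0.39 ± 0.27 at E9 (adjusted p = 0.676). Without replicate 1 of LV E10 the E10 difference was -0.95 and passed the test (adjusted p = 0.0459), as did the average over both ages at -0.67 (adjusted p = 0.0265), against -0.52 ± 0.19 with all arrays (adjusted p = 0.197). LV E10 then had 2 arrays. Of all genes, 730 were called between AVC and LV at E10, against 438 with all arrays, and 1357 averaged over ages, against 1042.

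Actn2 encodes the sarcomeric alpha-actinin of the Z-disc. It read 12657, 9066 and 11575 in AVC E10, against 12366, 16824 and 15443 in LV E10, so that 1 AVC array exceeded 1 LV array. In AVC E9 it read 15079, 12367 and 15510, against 16614, 12975 and 13946 in LV E9, with the ranges largely shared. The log2 difference for AVC against LV was -0.42 ± 0.17 (SE) at E10 (adjusted p = 0.297) and -0.02 ± 0.17 at E9, with an interaction of -0.41 (interval -0.95 to 0.14), the most negative of the 9 genes. Between ages Actn2 differed by -0.37 in the AVC (interval -0.76 to 0.01) and 0.03 in the LV (interval -0.35 to 0.42). A second probe for Actn2 gave -0.39 at E10 and 0.12 at E9.

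Tcap encodes telethonin, which caps the end of titin at the Z-disc. Its intensities were 3216, 2922 and 3457 in AVC E10, against 1411, 3899 and 3782 in LV E10. Replicate 1 of LV E10 was the lowest of all 12 arrays, while its 2 partners were the highest. In AVC E9 the intensities were 2789, 3107 and 2865, each above those of LV E9 at 2359, 1836 and 2100. Tcap differed between AVC and LV by 0.48 ± 0.34 (SE) at E9 (adjusted p = 0.687) and by 0.21 ± 0.34 at E10 (adjusted p = 0.924). The E10 value was -0.04 when arrays were scaled to the same 75th percentile and -0.27 without replicate 1 of LV E10. Between ages it had the largest positive difference in the LV, 0.40 ± 0.34 (adjusted p = 0.584), and 0.13 in the AVC. Without replicate 1 of LV E10 the LV difference was 0.88 and passed the test (adjusted p = 0.00533), and the average over both tissues was 0.50 (adjusted p = 0.00556), against 0.26 ± 0.24 with all arrays (adjusted p = 0.597). LV E10 then had 2 arrays. Of all genes, 2630 were called for age in the LV, against 452 with all arrays, and 3434 averaged over tissues, against 1544.

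Csrp3 encodes muscle LIM protein, a small Z-disc protein that binds alpha-actinin and telethonin. It read 16315, 19578 and 17040 in AVC E10, against 6400, 16706 and 14935 in LV E10, where replicate 1 again was the lowest of all 12 arrays. In AVC E9 it read 12070, 16505 and 10710, against 13356, 11017 and 12864 in LV E9. The difference between AVC and LV was 0.59 ± 0.34 (SE) at E10 (adjusted p = 0.528), the most positive of the 9 genes, and 0.16 without replicate 1 of LV E10. At E9 it was 0.06, and -0.09 with arrays scaled to the same 75th percentile. Between ages Csrp3 had the largest positive difference in the AVC, 0.45 ± 0.34 (adjusted p = 0.675), and 0.63 (adjusted p = 0.0345) when replicate 1 of LV E10 and replicate 2 of AVC E9 were both left out. With both left out, 1240 of all genes were called in this comparison, against 105 with all arrays. All 3 Csrp3 probes gave positive values for this comparison, 0.31 to 0.45.

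Ldb3 encodes cypher, a PDZ and LIM domain protein of the Z-disc that binds alpha-actinin. Its intensities were 346, 207 and 248 in AVC E10, against 93.9, 282 and 284 in LV E10. In AVC E9 they were 290, 290 and 264, each above those of LV E9 at 253, 173 and 203. The difference for AVC against LV was 0.41 ± 0.41 (SE) at E10 (adjusted p = 0.764) and 0.44 ± 0.41 at E9 (adjusted p = 0.81), and the E10 value became -0.12 without replicate 1 of LV E10. Of its 6 probes, 4 were above background on all arrays, and 1 of these 4, ILMN_2713622, had the opposite sign at E10, at -0.41.

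Ankrd1 encodes a stress-responsive ankyrin repeat protein that binds titin in the I-band and also enters the nucleus. It read 9361, 9497 and 11054 in AVC E10, against 5926, 9847 and 9663 in LV E10. In AVC E9 it read 8596, 10597 and 11900, against 6836, 5961 and 9081 in LV E9, with 1 AVC array below 1 LV array. The difference for AVC against LV at E9, 0.52 ± 0.23 (SE; adjusted p = 0.451), was the most positive of the 9 genes at that age, and its second probe gave 0.80. At E10 the difference was 0.27 ± 0.23 (adjusted p = 0.705), and 0.03 without replicate 1 of LV E10. Averaged over both ages it was 0.39 ± 0.16 (adjusted p = 0.258).

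Mybpc3 encodes cardiac myosin binding protein C of the thick filament, and Myom1 encodes myomesin, which crosslinks myosin and titin at the M-band. Mybpc3 ran from 2172 to 4363 in AVC E10 and from 1295 to 4873 in LV E10, with replicate 1 of LV E10 at 1295 and its partners at 4873 and 4130. At E9 it ran from 2870 to 3205 in the AVC and from 2087 to 2925 in the LV. Its 4 differences between pairs of groups lay between -0.06 and 0.26, with an interval of -1.11 to 1.06 for AVC against LV at E10. The tissue value at E10 was -0.62 without replicate 1 of LV E10. The age difference of Mybpc3 in the LV, 0.23 with all arrays, was 0.83 without replicate 1 of LV E10 (adjusted p = 0.0998), -0.13 without replicate 2 and -0.01 without replicate 3. With array weights it was 0.85 (adjusted p = 0.0165), and AVC against LV at E10 was -0.82 (adjusted p = 0.00847). These weights came from a fit that did not reach its tolerance. With them 6469 and 6852 of all genes were called in the same order, against 452 and 438 with equal weights. Myom1 ran from 1386 to 2544 in AVC E10, 1621 to 2412 in LV E10, 2428 to 2634 in AVC E9 and 2142 to 2856 in LV E9. Its age difference was -0.42 ± 0.23 (SE) in the AVC (adjusted p = 0.55) and -0.28 ± 0.23 in the LV (adjusted p = 0.56), and a second Myom1 probe gave -0.43 and -0.20.

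**Figure D4:**
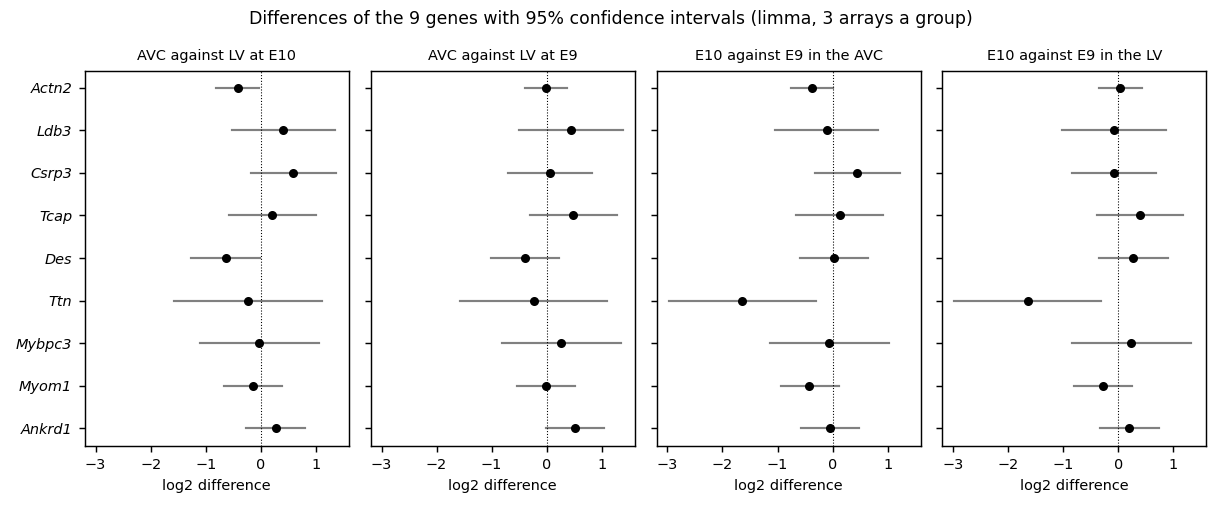
Log2 differences of the 9 genes in the 4 comparisons between pairs of groups, as points with 95% confidence intervals from limma. Only Ttn in the age comparisons has a value beyond 1 in size, at -1.65 in each tissue.

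Counted together, 4 of the 9 genes had a positive difference for AVC against LV at E10 and 5 at E9, with medians of -0.03 and 0.06 beside 0.18 and 0.08 for all genes above background. Between E10 and E9, 3 of 9 were positive in the AVC and 5 in the LV, with medians of -0.06 and 0.03 beside -0.01 and -0.10. Des, Ldb3 and Tcap separated AVC from LV without overlap at E9, 3 of 9 beside 17.1% of all genes. At E10 0 of 9 did so, beside 15.8%. Between ages 0 of 9 separated in the AVC, beside 16.2%, and 1 of 9, Ttn, in the LV. Averaged over ages, 0 of 9 were called between AVC and LV, beside 5.47% of all genes and with 2 of 9, Des and Ankrd1, at an unadjusted p under 0.05, beside 17.7% of all genes, and 0 of 9 separated all AVC from all LV arrays, beside 2.68%.

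Across the 12 arrays, replicate 1 of LV E10 stood out for several of the genes at once. The summed intensity of the 9 genes was 34753 on replicate 1 of LV E10, against 61183 and 58619 on its partners, and 43233 to 54156 on the other arrays. On that array the summed cardiomyocyte markers were 17724, against 17357 and 18438 on its partners, and the summed myosin, troponin and actin genes were 178939, against 194105 and 187335. Erythroid markers summed to 202564 there, against 147390 and 117580, epicardial markers to 3078, against 5739 and 6940, and endoderm markers to 2339, against 969 and 1024. The part of these cell types in the low scaffold values was not tested. Ldb3 and Mybpc3 had the highest Pearson correlation of any pair, 0.883 over 12 arrays, followed by Ldb3 and Tcap at 0.853 and Tcap and Mybpc3 at 0.824. Ttn ran the other way from Csrp3 and Tcap, at -0.623 and -0.595. These correlations describe arrays that share their RNA and scaling, and carry no test.

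**Figure D5:**
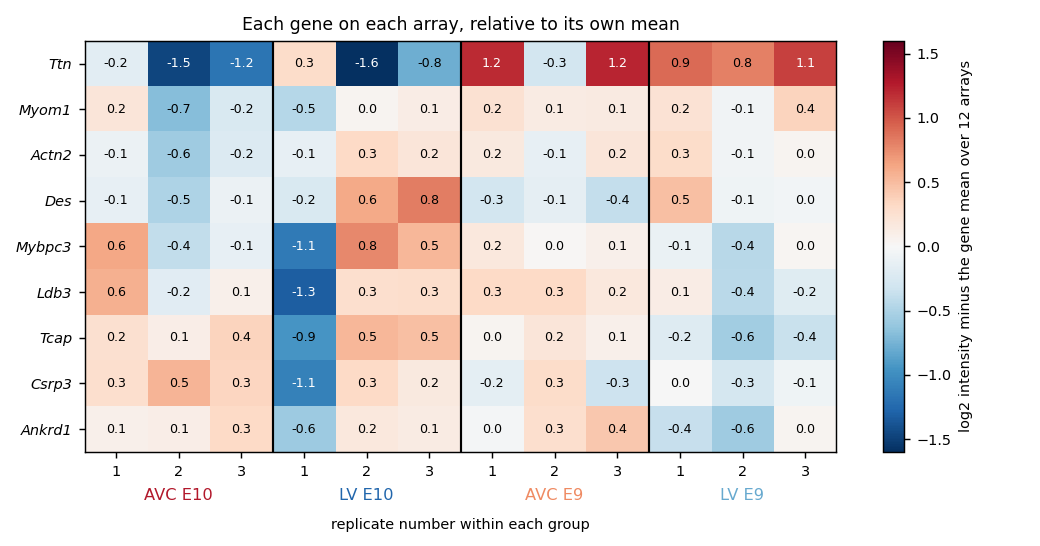
Log2 intensity of each gene on each array minus its mean over the 12 arrays, with arrays in columns by group and replicate number and genes in rows. Red is above and blue below the gene's mean, and the row of Ttn is red on LV E9. The column of LV E10 replicate 1 is blue for each gene except Ttn, most of all for Mybpc3, Ldb3, Tcap, Csrp3 and Ankrd1.

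The genes outside the set whose profiles were most like its mean, among 8331 genes above background on all arrays, were Tubb6 (Pearson r = 0.964), Elp5 (0.964), Diablo (0.955), Frmd5 (0.918) and Pcdhgc5 (0.916), over 12 arrays. For single genes the closest were Polr1a for Ttn (0.976), Nr2f6 for Ldb3 (0.972), Vdac1 for Des (0.971), Dusp27 for Mybpc3 (0.970), Ccl27a for Tcap (0.967), Aven for Myom1 (0.939), Fsd2 for Actn2 (0.930), Ccdc90b for Csrp3 (0.929) and Gas8 for Ankrd1 (0.899). The highest of 8331 correlations over 12 arrays is high by selection.

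A few other genes of the same structures passed the test. Among 26 measured proteins of the Z-disc and I-band, 1 was called between AVC and LV at E10, beside 2.3% of all genes, and 0 at E9, beside 1.02%. At E9, 7 of 26 had an unadjusted p under 0.05, beside 11.5% of all genes. Between ages 1 was called in the AVC, beside 0.551% of all genes, and 2 in the LV, beside 2.37%. Averaged over tissues 4 were called higher and 1 lower at E10, beside 8.1% of all genes. Averaged over ages 3 were called, each higher in the AVC, beside 5.47%. Pdlim3, an alpha-actinin binding PDZ-LIM protein and a relative of Ldb3, was higher in the AVC at E10, at 7520 ± 1055 against 2253 ± 686 in LV E10 (SD, n = 3; log2 difference 1.78, adjusted p = 0.0163). Lmcd1, a LIM protein that restrains GATA6, rose at E10 in both tissues, to 569 ± 235 in AVC E10 against 54.4 ± 20.4 in AVC E9 (3.35, adjusted p = 0.0489) and to 345 ± 186 in LV E10 against 45.7 ± 14.1 in LV E9 (2.76, adjusted p = 0.0459). Myoz2, a calsarcin that binds calcineurin at the Z-disc, rose in the LV, to 1528 ± 872 at E10 against 241 ± 27.9 at E9 (2.43, adjusted p = 0.048), and had 904 ± 186 in AVC E10 against 165 ± 48.6 in AVC E9 (2.48, adjusted p = 0.0748). Trim54, a ubiquitin ligase of the sarcomere, fell by 1.86 on the log2 scale at E10 averaged over tissues (adjusted p = 0.0131), with 77.4 ± 47.9 in AVC E10 and 83.3 ± 32.3 in LV E10, against 252 ± 46.2 in AVC E9 and 290 ± 54.7 in LV E9.

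The 9 measured M-band and thick filament genes, 12 thin filament and assembly genes and 17 costamere genes gave 0 calls in each of the 4 comparisons between pairs of groups, beside 0.551% to 2.37% of all genes. In these comparisons 0 to 4 genes of a list had an unadjusted p under 0.05, beside 11.5% to 19.6% of all genes. Averaged over ages, 1 of the 17 costamere genes was called, beside 5.47% of all genes. This was Sgca, a sarcoglycan of the dystrophin complex, which was 1.08 lower in the AVC than in the LV (adjusted p = 0.0238). It had 64.4 ± 17.6 in AVC E10 against 170 ± 57 in LV E10 and 89.1 ± 17.0 in AVC E9 against 152 ± 6.79 in LV E9. Of the 13 measured myosin, troponin, actin and tropomyosin genes, 1 was called between ages in the LV, beside 2.37% of all genes. This was Acta1, skeletal alpha-actin, at 7456 ± 1447 in LV E10 against 18000 ± 2131 in LV E9 (-1.28, adjusted p = 0.0421). Of the 13 non-muscle relatives of the scaffold genes, 1 was called between AVC and LV at E10 and 1 at E9, beside 2.3% and 1.02% of all genes. Pdlim7 was higher in the AVC at E10, at 1677 ± 164 against 1024 ± 122 in LV E10 (0.71, adjusted p = 0.0418). Pdlim4 was higher in the AVC at E9, at 403 ± 122 against 145 ± 21.1 in LV E9 (1.44, adjusted p = 0.0332). Csrp2, the LIM relative of Csrp3, was 1 of 3 relatives called on the average over ages, beside 5.47% of all genes. It was 0.73 higher in the AVC (adjusted p = 0.0216), with 10263 ± 1311 in AVC E10 against 6146 ± 1629 in LV E10. The medians of the non-muscle relatives for AVC against LV were 0.47 at E10 and 0.34 at E9, beside 0.18 and 0.08 for all genes above background, and cushion mesenchyme markers, summed above, were higher in the same tissue; their part was not tested.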

How the data were processed

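Total RNA was labelled as biotinylated cRNA and hybridised to Illumina Mouse WG-6 v2 BeadChips, 12 arrays in 4 groups of 3. The deposited values are linear intensity. Over all 45281 probes the mean was equal on every array and 34.7% of values were below 0, so the authors' values were background subtracted and scaled, but not quantile normalized. No source used here names the program that made them, and GeneSpring GX is named for the study's own comparisons.

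Values under 1 were set to 1 and log2 transformed. Probes were joined to genes by the platform annotation, 34885 probes with 1 symbol, 18 with several and 10378 without a listed gene. The brightest probe stood for each of 19057 genes. All 4 groups were fitted together with limma (version 3.58.1) in R 4.3.3, and two-sided p-values received Benjamini-Hochberg adjustment over all genes within a comparison, with calls at an adjusted p under 0.05. The fit was run on simulated data with independent noise and planted changes between AVC and LV at E10. Those changes were larger than the tissue differences of these genes and no array stood apart, so the run does not bear on these results. The averages over tissues and over ages were added after the values were seen.

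The members and lists were chosen with earlier results of these data known. All members are described, with values per array where a comparison was called or was the largest or smallest. In other lists the called genes of largest size are named, and the most alike genes by Pearson r. Alternatives covered the floor, an offset, quantile and 75th percentile scaling, a filter on dim genes, the groups fitted, a variance trend, array weights, a replicate block, arrays left out, the mean of probes, and the methods' thresholds and Student test. Promoter sequences come from RefSeq.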

Additional observations from a re-analysis of the deposited data

How the results depend on the processing

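Array weights, which gave replicate 1 of LV E10 a weight of 0.122 and replicate 3 of AVC E10 one of 6.36, called 3 of the 9 genes for AVC against LV at E10 (Actn2, Des and Mybpc3), 4 for age in the AVC (Actn2, Csrp3, Ttn and Myom1), 4 for age in the LV (Tcap, Des, Ttn and Mybpc3), 2 for AVC against LV averaged over ages (Actn2 and Des) and 5 for E10 against E9 averaged over tissues (Csrp3, Tcap, Des, Ttn and Myom1), where 0, 0, 0, 0 and 1 were called with equal weights. The fit of these weights did not reach its tolerance, and it also called 6852 of all genes for AVC against LV at E10, against 438. With replicate 1 of LV E10 and replicate 2 of AVC E9 both left out, which leaves those groups with 2 arrays, 1, 2, 2, 1 and 3 of the 9 genes were called in the same order. Leaving out 1 array at a time gave 0 to 1 calls for AVC against LV at E10, 0 to 2 for age in the LV, 0 to 1 averaged over ages and 0 to 2 averaged over tissues, and 0 in each run for AVC against LV at E9, age in the AVC and the interaction. The call of Ttn averaged over tissues was lost, leaving 0 genes called, with a floor of 10 (adjusted p = 0.0509), with the mean of its detected probes (-1.78, adjusted p = 0.0522) and at the methods' thresholds, since its size is under 4-fold. No setting that changed a call turned its direction. Of 63 differences of a gene in a comparison, 26 turned sign in at least 1 setting, in all 93 of 1557 values. None of these had been called with all arrays and equal weights. Whether the replicate numbers pair the samples was not settled. Of 18 same-numbered pairs, 9 had correlated deviations over 0.1 (from -0.365 to 0.524 over all pairs) and 9 matched their own number best. The correlations were 0.234, 0.094 and 0.276 for AVC E9 with LV E9, and -0.319, 0.004 and -0.041 for LV E10 with LV E9. With the replicate block, 0 of 9 genes were called in the comparisons between pairs of groups and 1 averaged over tissues, Ttn at -1.65 (adjusted p = 0.0202), as without it, and over all genes the block gave 66 calls for age in the AVC against 105, 794 for age in the LV against 452 and 3 for the interaction against 6. The counts over all genes moved more, from 10 to 6852 for AVC against LV at E10, 54 to 1166 at E9, 13 to 4452 for age in the AVC, 26 to 6469 for age in the LV and 0 to 607 for the interaction, and with single arrays left out from 97 to 730, 59 to 422, 25 to 465, 54 to 2630 and 10 to 43. Averaged over ages they ran from 235 to 5181 and from 567 to 1357. Over tissues they ran from 320 to 7322 and from 554 to 3434. Scaling arrays to the same 75th percentile shifted AVC against LV by -0.26 at E10 and -0.15 at E9 over all genes above background, quantile normalization by -0.21 and -0.10. The share of calls higher in the AVC at E10 was 89.5%, and 52.3% and 69.4% under these scalings, and at E9 it was 83.6%, and 47.3% and 65.6%. The share higher at E10 was 78.1% in the AVC and 57.7% in the LV, and 48.5% and 38.1% with the 75th percentile. Averaged over ages, 87.5% of calls were higher in the AVC, and 44.8% and 65.3% under both scalings. Averaged over tissues 57% were higher at E10, and 40.6% with the 75th percentile. The cause of these changes was not tested. With 3 arrays a group, the 95% interval of a difference between AVC and LV at E9 was -0.40 to 0.37 for Actn2 and -1.57 to 1.10 for Ttn. These bounds are not limits of detection. Ttn at -1.65 between ages in each tissue and Actn2 at -0.42 between AVC and LV at E10 were not called either. The interaction was not run with only the groups compared or with the methods' test.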
